A study of Homo sapiens with 3 samples.

Results

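Cholesterol is made from acetyl-CoA along one chain of enzymes. The mevalonate arm builds isoprenoid units, the squalene steps join and cyclize them into lanosterol, and a last set of enzymes trims lanosterol to cholesterol. The transcription factor SREBP2, encoded by SREBF2, is carried out of the endoplasmic reticulum by SCAP when sterols are low, is held back by the INSIG proteins when they are high, and switches on most of these enzymes. The liver X receptors act in the opposite state and drive export through ABCA1 and ABCG1 and degradation of lipoprotein receptors through MYLIP. Prostate cancer cells use cholesterol for membranes and as the starting point of steroids.

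The genes described here are 31 genes of cholesterol synthesis, sensing, uptake, transport and export. They were found as the gene probes whose gene name on the array is one of the 31, and 37 probes met this. The list was chosen on measured values, since LSS, IDI1 and SREBF2 had been seen lower in these same arrays before the others were added from the pathway. The values are therefore given as a description of the arrays, and calls of a test are counted without being read as support. Of the 31 genes, 29 were measured among 17059 genes tested in the series, which means that a probe was well above background in one dye on all 3 arrays.

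Total RNA came from 22RV1, an androgen receptor-positive human prostate cancer line, infected with lentivirus so as to carry stably 1 of 3 hairpins to SPINK1 (named shSPINK1-1, shSPINK1-2 and shSPINK1-3) or a scrambled hairpin (shSCRM). All of these cells were grown in RPMI-1640 with 10% fetal bovine serum and 1 µg/mL puromycin, so that the control shared the virus, the selection and the serum, which is itself a source of cholesterol. Each shSPINK1 RNA, labelled with Cy5, shared an array with Cy3-labelled shSCRM RNA, and the 3 arrays form the only group. No dye swap was made, so what a dye does to a probe and what a hairpin does to its gene cannot be told apart, and the spread between control cultures is in no error given. Nothing in the labels says that a hairpin was tested in more than 1 culture. In bulk RNA, fewer cells expressing a gene and less RNA per cell cannot be told apart.

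Every value below is a log2 ratio of shSPINK1 over shSCRM unless it is called a brightness, and the SD is that over 3 arrays. SPINK1 itself, the silenced gene, was at -3.71, -3.65 and -3.89 with hairpins 1, 2 and 3. Its mean was -3.75 ± 0.12 (SD, n = 3 arrays), which leaves 7.43% of the shSCRM level. All 7 markers of luminal prostate epithelium were well above background in shSCRM RNA on all 3 arrays. Of 6 markers of other cell types, 3 were, namely PTPRC (1 of its 5 probes), COL1A1 and the hepatocyte marker ALB, and CD68 was not on the array under that name. COL1A1 was dim, with a Cy3 brightness of 45.1 to 50.1, and ALB was bright, with 12400 to 13400. The part of these genes in any result was not tested.

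Sequence elements of the promoters are shown first, because SREBP2 acts together with the factors that bind them. RefSeq promoter windows (GRCh38.p14) of 300 bases, 250 before and 50 after the start of transcription, were at hand for 26 of the 31 genes, in 35 windows. They were searched on both strands for the core of the sterol regulatory element, TCACNCCAC, the element that SREBP2 binds. The CCAAT box bound by NF-Y, the GC box GGGCGG bound by Sp1, the E-box CACGTG and the DR4 element of the liver X receptors (a repeat of AGGTCA with 4 bases between) were searched as well. The last was in 0 of the windows, against 0.00901% of all windows of protein-coding genes.

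The SRE core was in 1 of the 35 windows, that of SREBF2, and in 1.13% of the 22199 windows of protein-coding genes. The window of SREBF2 (GRCh38.p14, chr22:41832855-41833154, plus strand) is shown with the SRE core, 133 bases before the start, and 1 CCAAT box, read as ATTGG on this strand, in capitals. The CCAAT box was in 22 of the 35 windows (62.9%, against 34.7% of protein-coding windows), and 7 windows held 3 or more copies, against 3.61%. The GC box was in 32 of the 35 (91.4%, against 56.3%), and 12 windows held 3 or more copies, against 20.7%. The E-box was in 6 (17.1%, against 8.34%). The window of MVK (chr12:109573544-109573843, plus strand) is shown for its 5 CCAAT boxes, in capitals on either strand. That of LSS (chr21:46228725-46229024, minus strand) is shown because LSS, read by its brighter probe, was the lowest of the 29 genes with loess. Its capitals mark 7 GC boxes, 1 CCAAT box and 1 E-box, and the GC boxes lie from 232 bases before the start to 4 bases after it.
SREBF2: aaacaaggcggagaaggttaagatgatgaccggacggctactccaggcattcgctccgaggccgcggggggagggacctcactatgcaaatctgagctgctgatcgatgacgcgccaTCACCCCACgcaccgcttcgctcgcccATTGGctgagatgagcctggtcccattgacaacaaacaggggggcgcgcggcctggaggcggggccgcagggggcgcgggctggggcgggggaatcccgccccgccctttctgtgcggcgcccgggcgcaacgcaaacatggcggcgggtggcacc
MVK: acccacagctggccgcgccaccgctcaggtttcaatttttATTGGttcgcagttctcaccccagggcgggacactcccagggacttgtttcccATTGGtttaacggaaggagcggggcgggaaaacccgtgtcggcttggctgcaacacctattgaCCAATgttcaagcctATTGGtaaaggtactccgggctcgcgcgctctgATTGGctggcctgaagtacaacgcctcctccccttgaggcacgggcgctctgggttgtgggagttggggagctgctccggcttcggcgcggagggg
LSS: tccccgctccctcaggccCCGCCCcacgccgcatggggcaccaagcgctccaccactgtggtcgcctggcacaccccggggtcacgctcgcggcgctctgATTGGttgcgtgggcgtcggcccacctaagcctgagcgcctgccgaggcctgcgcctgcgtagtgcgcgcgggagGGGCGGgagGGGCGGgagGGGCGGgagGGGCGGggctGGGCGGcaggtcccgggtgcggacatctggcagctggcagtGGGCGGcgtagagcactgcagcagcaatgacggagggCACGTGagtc
A match is a description of the letters, and a window without one says nothing about SREBP2, which also binds other forms of its element.

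The mevalonate arm turns acetyl-CoA into farnesyl and geranylgeranyl diphosphate, and 7 of its 8 genes were below 0 with every hairpin. IDI1, which isomerizes the isoprenoid building block, was at -0.77, -0.50 and -0.44 with hairpins 1, 2 and 3, a mean of -0.57 ± 0.17. The mean corresponds to 32.7% less RNA than in shSCRM cells. Its brightness before normalization was 1100, 1080 and 1180 in Cy5 against 2470, 2200 and 2390 in Cy3. Before normalization Cy5 was below Cy3 for all 29 genes on each array, NPC2 included, so a brightness shows how bright a gene was and not its direction. MVD, the decarboxylase that makes this building block, was at -0.84, -0.33 and -0.30. The mean of MVD was -0.49 ± 0.31, so that hairpin 1 lay well below the other two, and it was -0.31 without replicate 1.

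HMGCS1, the synthase that makes HMG-CoA at the entry of the arm, was at -0.81, -0.27 and -0.06, a mean of -0.38 ± 0.39. Its SD was as large as its mean, and hairpin 3 lay near the shSCRM level. The kinases of the arm were closer together: MVK, which phosphorylates mevalonate, was at -0.63, -0.28 and -0.23, and PMVK, which acts next, at -0.39, -0.18 and -0.30. ACAT2, the cytosolic thiolase that joins the first acetyl-CoA units, was at -0.48, -0.15 and -0.15. All of these genes were lower with each hairpin, and hairpin 1 gave the lowest value for each.

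The 2 synthases at the end of the arm differed from these. FDPS, which makes farnesyl diphosphate, was at -0.27 with hairpin 1 but at 0.19 and 0.12 with hairpins 2 and 3, a mean of 0.01 ± 0.25. It was the exception among the 19 enzymes of synthesis, since the other 18, each read by its brightest probe, were below 0 on all 3 arrays. GGPS1, which makes geranylgeranyl diphosphate for protein prenylation and is not counted here as an SREBP2 target, was at -0.09, -0.33 and -0.33, the reverse of the usual order, with hairpin 1 nearest to 0.

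Squalene is made by FDFT1, oxidized by SQLE and cyclized to lanosterol by LSS, and all 3 genes were below 0 with every hairpin. LSS was at -0.98, -0.85 and -0.58, a mean of -0.80 ± 0.21, or 42.7% less RNA, and was the only one of the 29 genes below -0.5 with all 3 hairpins (18 of all genes tested were). Its brightness was 485, 413 and 529 in Cy5 and 1310, 1120 and 1200 in Cy3. FDFT1 was at -0.67, -0.25 and -0.27, with hairpin 1 apart from the others, and its mean of -0.40 was -0.26 without replicate 1. SQLE, a step at which the pathway is often limited, was at -0.48, -0.45 and -0.24, with hairpins 1 and 2 close together.

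The 8 genes from lanosterol to cholesterol, each read by its brightest probe with loess, were all below 0 with all 3 hairpins, but most lay near 0. For HSD17B7 the direction depended on the probe, as given below. TM7SF2, a sterol reductase, was at -0.56, -0.39 and -0.39, a mean of -0.45 ± 0.10. MSMO1, the methylsterol oxidase, was the most even of all measured members below -0.4, with -0.45, -0.42 and -0.43 and a mean of -0.43 ± 0.02. These 2 stood apart from the other 6, whose means ran from -0.18 for CYP51A1, the lanosterol demethylase, to -0.11 for DHCR7, which makes cholesterol in the last step. CYP51A1 was lowest with hairpin 2 (-0.34, against -0.10 and -0.12), and EBP, the sterol isomerase, was lowest with hairpin 1 (-0.32, against -0.09 and -0.09). NSDHL, which removes the methyl groups at C4 with MSMO1, had a mean of -0.16 ± 0.06. SC5D, the desaturase before DHCR7, had a mean of -0.15 ± 0.04 but was dim, with a Cy5 brightness of 20.5 to 28.4, and was well above background in Cy5 on only 2 arrays.

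**Figure D1:**
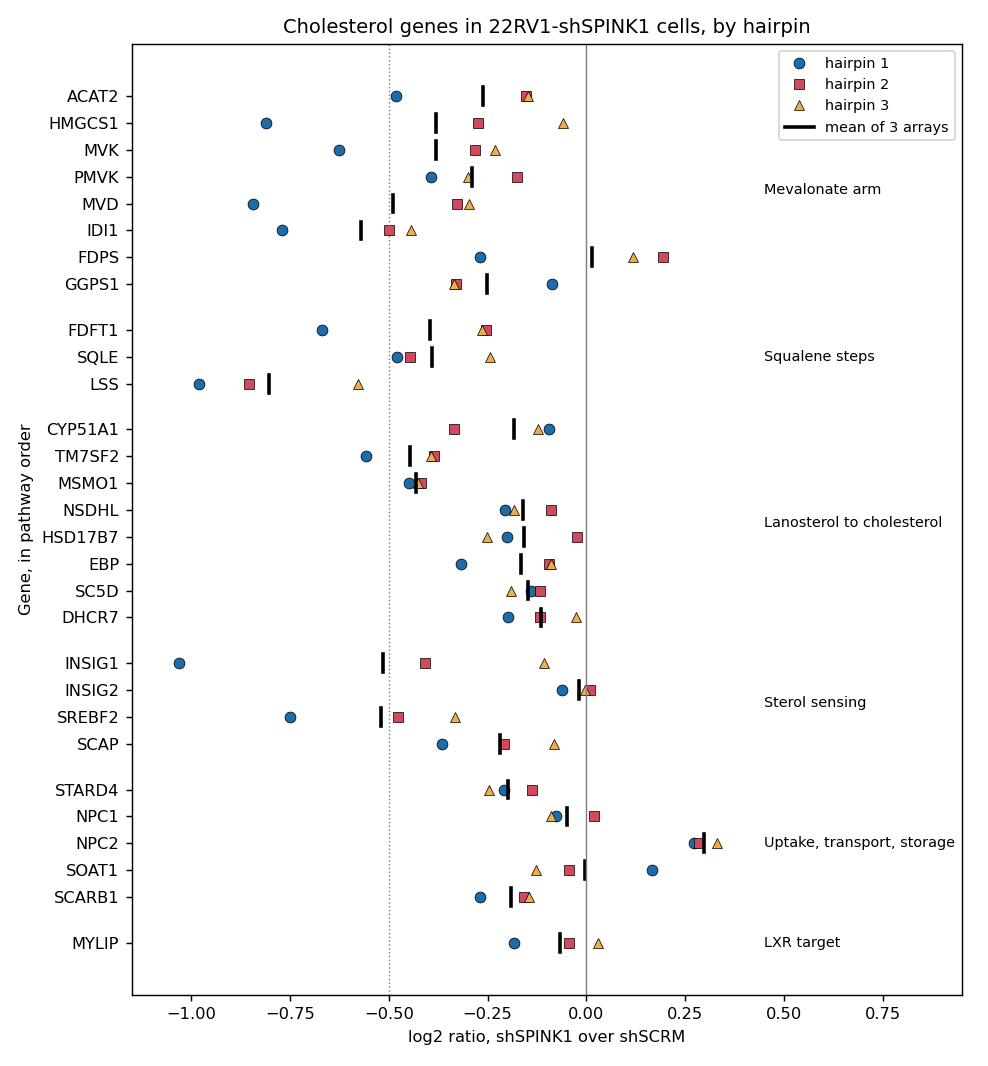
Log2 ratio of shSPINK1 over shSCRM (x axis) for each of the 29 measured genes in pathway order (y axis), with 1 point per hairpin and a bar for the mean; the dotted line is at -0.5. Each gene is read by its brightest probe, with loess. Of the 19 synthesis enzymes, 18 have all 3 points below 0, hairpin 1 is lowest for 22 of the 29 genes, and NPC2 is the 1 gene with all points above 0.

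The sensing genes were uneven. SREBF2 was at -0.75, -0.48 and -0.33, a mean of -0.52 ± 0.21, with a Cy5 brightness of 582, 546 and 660 against 1330, 1120 and 1250 in Cy3. INSIG1, an SREBP2 target that closes the feedback loop, was at -1.03, -0.41 and -0.11 in the same order. That spread of 0.92 was the widest among the 29 genes, and the 95% interval of the mean of -0.52 ± 0.47 ran from -1.69 to 0.65. Intervals of other members held 0 as well, among them SREBF2 (-1.05 to 0.01), MVK, MVD, FDFT1 and GGPS1. INSIG2, the homologue of INSIG1 that does not depend on SREBP2, was at -0.06, 0.01 and -0.00, at the shSCRM level with each hairpin. SCAP, the carrier of SREBP2, was between, with -0.36, -0.21 and -0.08.

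Genes of uptake, transport and storage split in direction. STARD4, a cytosolic sterol carrier and SREBP2 target, was at -0.21, -0.14 and -0.25. SCARB1, the receptor that takes up cholesterol from high-density lipoprotein, was at -0.27, -0.16 and -0.14. NPC2, the lysosomal protein that hands cholesterol to NPC1, was at 0.27, 0.28 and 0.33, a mean of 0.30 ± 0.03, and was the 1 member above 0 with each hairpin; with median centring in place of loess its mean was -0.04, above the median of all genes there (-0.23). NPC1, the membrane protein of the same export route, was at -0.08, 0.02 and -0.09. NPC1 was printed as 10 spots per array (9 usable on the first), whose SD within an array was 0.0947, 0.0707 and 0.0641. It was dim, with a Cy5 brightness of 25.87 to 34.15, so a small spread between spots does not make its ratio sure. With the log ratios of Agilent's Feature Extraction software the mean of NPC1 was -0.19. SOAT1, which esterifies cholesterol for storage, had a mean of -0.00 ± 0.15 and was above 0 with hairpin 1 (0.17) only.

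The export genes could hardly be read. The 2 probes of ABCA1, the transporter that loads cholesterol onto lipoprotein, were not well above background in either dye on any array, with a brightness of 15.7 to 20.5 in Cy5 and 29.9 to 34 in Cy3. The probe of ABCG1, a second exporter, was well above background on 2 of 3 arrays in each dye, with 19.8 to 26 in Cy5 and 36.4 to 48.5 in Cy3. No ratio is given for either. MYLIP, the liver X receptor target that was measured, was at -0.18, -0.04 and 0.03, a mean of -0.07 ± 0.11.

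The contrast between SREBP2 targets and liver X receptor targets thus set 21 genes against 1. The median of the 21 SREBP2 targets was -0.48, -0.27 and -0.24 with hairpins 1, 2 and 3, and that of their means was -0.38 (-0.24 without replicate 1). It lay below MYLIP by 0.29, 0.23 and 0.27, a mean difference of -0.27 ± 0.03. The 21 include LSS, IDI1 and SREBF2, on whose low values the list was chosen, so part of this difference was set by that choice. A single gene cannot stand for the receptor's targets, and no test was made.

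By role, the median of the means was -0.40 for the 3 squalene genes, -0.37 for the 4 sensing genes, -0.33 for the 8 genes of the mevalonate arm, -0.16 for the 8 genes after lanosterol and -0.05 for the 5 genes of uptake, transport and storage. The squalene, sensing and mevalonate groups each hold a gene on which the list was chosen, namely LSS, SREBF2 and IDI1. Their place before the other groups was therefore set in part by that choice. With groups of 3 to 8 genes and an SD over arrays of up to 0.23, neighbours in this order were not told apart. Without replicate 1 the sensing genes were at -0.20, nearer to 0 than the mevalonate arm at -0.25. With loess the median of the transport genes ran from -0.09 to -0.03 when each array was left out. It was -0.19 with the log ratios of Agilent's Feature Extraction software, where that of all genes was 0.00. With median centring it was -0.27, where that of all genes was -0.23. The median of all 29 with loess was -0.22, against -0.01 for all genes tested.

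**Figure D2:**
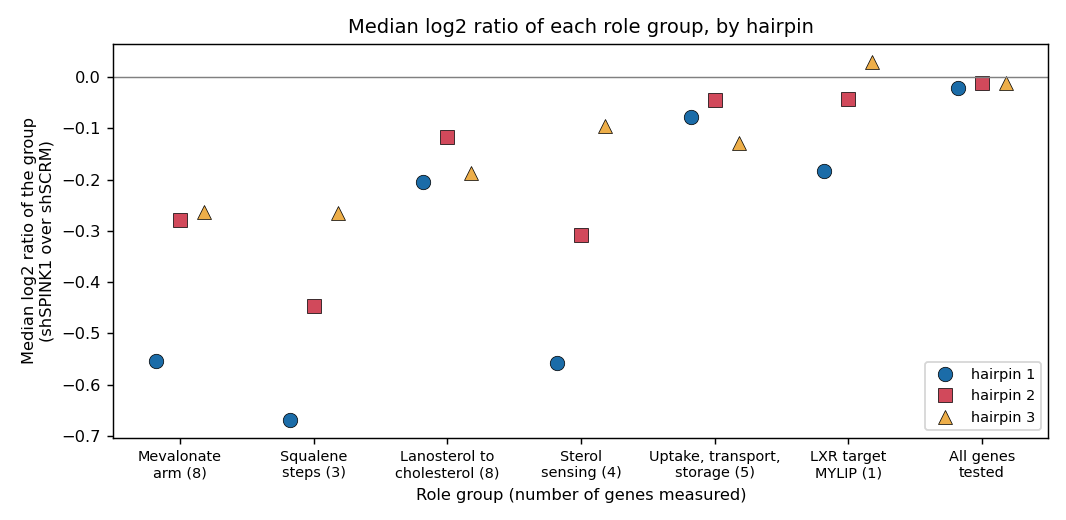
Median log2 ratio of each role group (y axis) with each hairpin, by group (x axis, number of genes measured in brackets), beside that of all genes tested. The squalene group lies between -0.67 and -0.27 and all genes between -0.02 and -0.01.

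The hairpins differed in size more than in direction. The median over the 29 genes was -0.32, -0.18 and -0.18 for hairpins 1, 2 and 3, while the SD over all genes tested was 0.18, 0.20 and 0.18. Below -0.5 were 9 of the 29 genes with hairpin 1 and 1 with each of the others, that being LSS. Of all 17059 genes tested, 178, 163 and 120 were below -0.5 with hairpins 1, 2 and 3. Hairpin 1 gave the lowest value for 22 of the 29 genes, hairpin 3 for 6 and hairpin 2 for 1; over all genes tested hairpin 1 was lowest for 37.5%. SPINK1 was at -3.71, -3.65 and -3.89 with hairpins 1, 2 and 3, and its part in these differences was not tested. Each hairpin was on 1 array, so a difference between hairpins cannot be told apart from one between arrays.

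Of the 29 genes, 23 were below 0 on all 3 arrays and 1 above 0, against 29.0% and 21.2% of all genes tested. In limma's test over all genes with Benjamini-Hochberg adjustment, 12 of the 29 passed an adjusted p of 0.05 as lower and 1, NPC2, as higher, against 8.72% and 4.77% of all genes. With the further limit of a mean below -0.5, 3 passed, LSS, IDI1 and SREBF2, the genes on which the list was chosen, against 0.393% of all genes. The other 9 that passed as lower were MVK, PMVK, MVD, GGPS1, FDFT1, SQLE, TM7SF2, MSMO1 and STARD4. Without replicate 3 the count of 12 was 7, against 1.71% of all genes in that setting. With the log ratios of Agilent's Feature Extraction software in place of loess it was 0, while 18 of the 29 had an unadjusted p under 0.05 as lower (12.5% of all genes did) and 26 had a mean below 0. The list was chosen in this contrast, so nothing is read from these counts.

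Feature Extraction's log ratios differ from the loess values in background correction, offset and normalization at once, and which of these moved a gene was not tested. With them SC5D was at -0.78 in place of -0.15, GGPS1 at -0.51 in place of -0.25 and MSMO1 at -0.61 in place of -0.43, all dim genes. Bright genes moved too, EBP from -0.17 to -0.34 and DHCR7 from -0.11 to -0.23, while NSDHL came nearer to 0, at -0.09. LSS (-0.83), IDI1 (-0.57), INSIG1 (-0.51) and SREBF2 (-0.51) moved little. The brightest 5% of all genes held 7 members, MVK, FDPS, FDFT1, EBP, DHCR7, NPC2 and SCARB1. The median of that brightest class was 0.13 with loess and -0.01 with Feature Extraction's log ratios, and its part in the values of FDPS and NPC2 was not tested. Feature Extraction put FDPS at -0.06 and NPC2 at 0.22. The median of the 29 genes relative to that of all genes was -0.21 with loess, -0.34 with Feature Extraction and -0.30 with median centring.

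**Figure D3:**
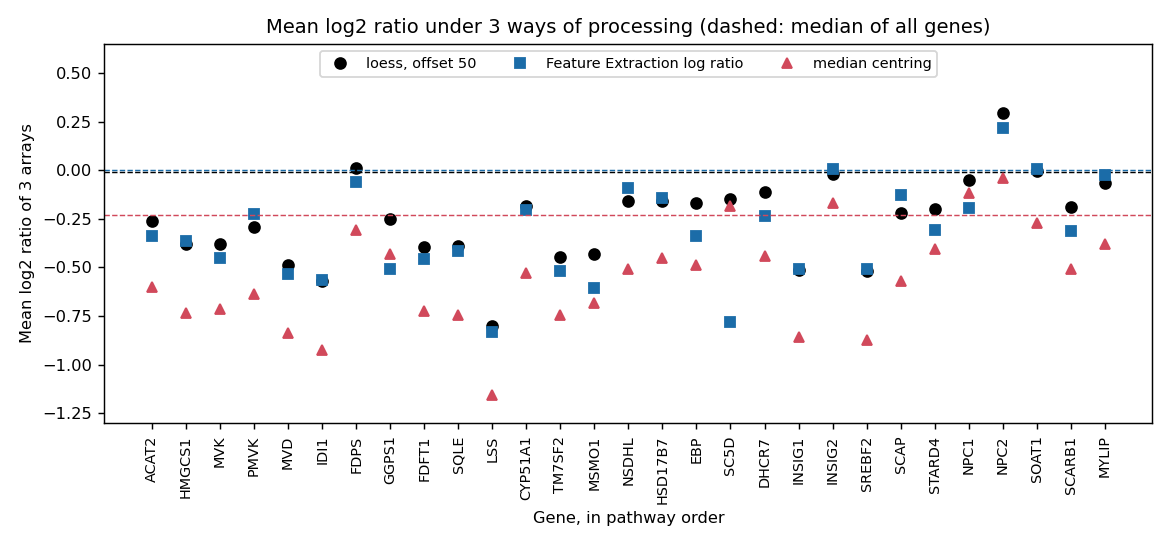
Mean log2 ratio of 3 arrays (y axis) for each measured gene in pathway order (x axis) with loess and an offset of 50, with Feature Extraction's log ratio and with median centring; dashed lines are the median of all genes under each. LSS is the lowest gene under all 3, and SC5D moves from -0.15 to -0.78 with Feature Extraction.

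Of the 31 genes, 4 had more than 1 probe, and the probes did not always give the same value. LSS has 2, which the array's annotation (hg19) places 672 bases apart on the minus strand of chromosome 21. The brighter lies at chr21:47609299-47609358 and is assigned to base 3937 of 1 transcript, and the other lies at chr21:47608567-47608626 and is assigned to base 2425 of a different transcript of the gene. Their first 30 of 60 bases are shown because the value of LSS rests on which of them is read.
Brighter LSS probe: ctgcacatcttaaaactgggctttattttc
Other LSS probe: ctgtgttcaatccattgtttagagggagtg
The brighter gave -0.98, -0.85 and -0.58, and the other -0.28, -0.15 and -0.17, a mean of -0.20 ± 0.07 (-0.33 with Feature Extraction's log ratios). They differed by 0.70, 0.71 and 0.40 with hairpins 1, 2 and 3, and on each array both were below 0. With the mean of both probes LSS was at -0.50, above IDI1 and SREBF2, and in the deposited table at -0.58, above SC5D and MSMO1. The other probe was the dimmer, with a Cy3 brightness of 104 to 105, and had a GC content of 38.3%, against 45% for the brighter; neither was tested as a cause.

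HSD17B7, a ketosteroid reductase of the same pathway, has 4 probes, whose means were -0.16 ± 0.12, -0.11 ± 0.17, 0.04 ± 0.01 and -0.18 ± 0.12 from the brightest to the dimmest. The 2 next brightest are also annotated to its pseudogene HSD17B7P2, so that RNA of either can bind them. The brightest crosses an exon junction, since its 60 bases span 791 bases of chromosome 1. The dimmer of those 2 was above 0 with each hairpin (0.05, 0.04 and 0.03), so the direction for HSD17B7 depends on the probe. The dimmest of the 4 was well above background in Cy3 on all 3 arrays but in Cy5 on 0, with a Cy5 brightness of 17.9 to 20.1. Its mean was -1.65 with Feature Extraction's log ratios. The 2 probes of INSIG2 both lay near 0, with means of -0.02 ± 0.04 and -0.01 ± 0.11. The other 27 genes rest on 1 probe each.

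**Figure D4:**
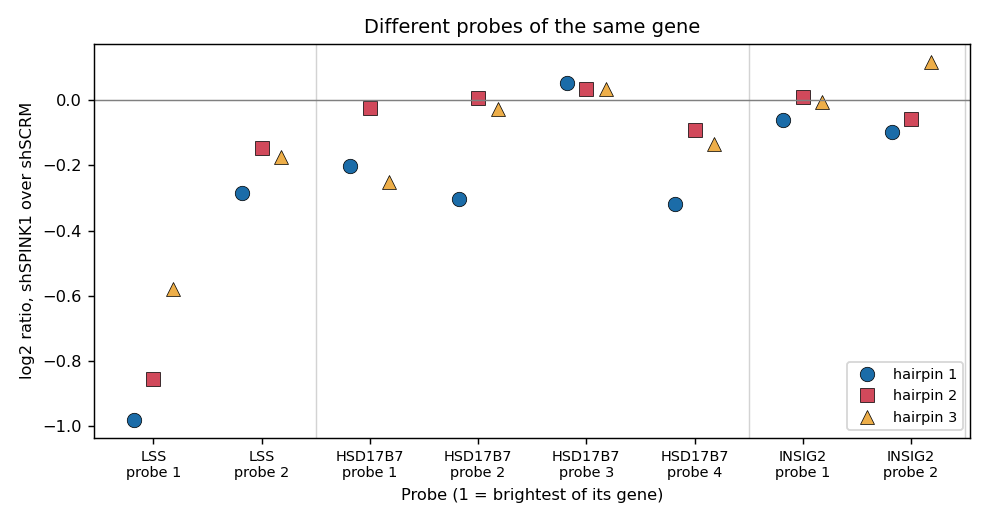
Log2 ratio of shSPINK1 over shSCRM (y axis) for probes of LSS, HSD17B7 and INSIG2 (x axis, brightest first), with 1 point per hairpin. Shown is every probe well above background in at least 1 dye on all 3 arrays. The second LSS probe lies between -0.28 and -0.15, above the brighter one with each hairpin, and the HSD17B7 probe placed after the 2 brightest lies above 0.

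Around these genes, 73 others of the pathway were listed by role, and 61 were measured. Of these, 10 passed an adjusted p of 0.05 by limma as lower and 0 as higher (16 lower and 4 higher at an unadjusted p under 0.05), and their median was -0.05. Over all genes tested 8.72% passed as lower and 4.77% as higher, and 18.4% were lower at an unadjusted p under 0.05 by limma. None of the 61 had a mean beyond 0.5 in either direction. Without replicates 1, 2 and 3 in turn the count of 10 was 13, 2 and 1, against 11.3%, 3.69% and 1.71% of all genes. Those that passed as higher were then 2, 1 and 0. By limma on Feature Extraction's log ratios the count of 10 was 0, against 0.0176% of all genes. At an unadjusted p under 0.05 by limma, 9 were lower there, against 12.5% of all genes, and 3 were higher. With median centring it was 47, where 60.6% of all genes passed as lower. By role, 4 of 17 measured genes of sterol trafficking and storage passed as lower, 2 of 15 of the sensing machinery, 2 of 7 of the liver X receptor and export list, 1 of 13 of the isoprenoid branch and 1 of 9 of other sterol enzymes.

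The 4 that passed furthest from 0 were as follows. NR1H2, the liver X receptor beta, was at -0.47, -0.42 and -0.42, a mean of -0.44 ± 0.03 (adjusted p = 0.00615 by limma). OSBP, which exchanges cholesterol between the endoplasmic reticulum and the Golgi, was at -0.10, -0.42 and -0.45, a mean of -0.32 ± 0.19 (adjusted p = 0.0344 by limma), with hairpin 1 nearest to 0. TMEM97, a sterol-responsive partner of NPC1, was at -0.29, -0.30 and -0.27, a mean of -0.29 ± 0.01 (adjusted p = 0.0140 by limma). RXRB, a retinoid X receptor that pairs with the liver X receptors, was at -0.28, -0.31 and -0.26, a mean of -0.28 ± 0.03 (adjusted p = 0.0149 by limma). NR1H2, TMEM97 and RXRB differed little between the hairpins. Of these, NR1H2 and RXRB were dim. Their mean log2 brightness over both dyes, with the offset of 50 added, was 6.78 and 6.69, against 6.72 for GGPS1 and 9.30 for TMEM97. The part of the offset in their small spread was not tested. NR1H2 passed without each replicate in turn. OSBP and RXRB did not pass without replicate 2 (adjusted p = 0.103 and 0.0546 by limma), nor without replicate 3 (adjusted p = 0.168 and 0.0751 by limma). TMEM97 did not pass without replicate 3 (adjusted p = 0.0763 by limma). None of the 4 passed with Feature Extraction's log ratios, where NR1H2 was at -0.88 and RXRB at -0.57.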

How the data were processed

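Total RNA of 22RV1 cells was hybridised to 3 two-colour Agilent arrays, one for each SPINK1 hairpin (Cy5) against the scrambled hairpin (Cy3). The authors tailed the RNA with poly(A), labelled it by the Quick-Amp protocol and read the arrays with Feature Extraction 11.5.1.1. The deposited scanner files hold mean and background intensity per spot and a log10 ratio of Cy5 over Cy3, which the authors' software background-subtracted and dye-normalized. A deposited table of the series holds log2 ratios per gene; 79.7 to 80.9% of its values lay within 0.02 of those of the scanner files.

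Intensities were corrected with normexp (offset 50) and normalized by loess within each array in limma 3.58.1 (R 4.3.3), without control spots and outlier flags (0.203% of gene spots). Spots of a probe were averaged, probes had to be well above background in one dye on all 3 arrays, and the brightest probe stood for its gene (17059 genes from 21441 probes). Mean log2 ratios were tested against 0 by lmFit and eBayes with Benjamini-Hochberg adjustment, and the code was tested on simulated data. The number of arrays limits the precision, and the p-values measure only the spread between these arrays. The members and all lists were chosen with earlier results of these data known. All members were named, and from the lists of related genes those past an adjusted p of 0.05 with a mean beyond 0.5 or, where fewer than 4 met this, the 4 past it furthest from 0. Alternatives were no background correction, median centring, Feature Extraction's log ratio, the deposited table, the mean of probes, no filter and leaving out each array. Coordinates of probes are those of the array annotation (hg19), and promoters are from RefSeq (GRCh38.p14).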

Additional observations from a re-analysis of the deposited data

How the results depend on the processing

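No paired analysis was possible because there is 1 group, in which every array already sets both RNAs against each other; all arrays were on 1 slide, so no slide or scan block could be fitted. Of the 29 measured members, 25 kept one sign in every setting, and FDPS, INSIG2, NPC2 and SOAT1 had both. The cause was not tested for any change below. With median centring the median of all genes was -0.23, and the mean log2 ratio of NPC2 was -0.037. The group medians there were -0.27 for transport, -0.50 for lanosterol to cholesterol, -0.53 for all members, -0.64 for synthesis enzymes, -0.68 for the mevalonate arm, -0.69 for SREBP2 targets, -0.71 for sensing and -0.75 for the squalene steps, with 27 members called lower at any size, as were 60.6% of all genes (10341). With the size limit 1965 genes were lower and 2 higher. With Feature Extraction's log ratios they were -0.19 for transport, -0.29 for lanosterol to cholesterol, -0.34 for all members and -0.41 for synthesis, and SREBP2 targets lay below MYLIP by -0.38. With the deposited table the same values were -0.18, -0.28, -0.33, -0.42 and -0.37. By limma, both settings called 0 members lower, 3 genes lower and 0 higher, while 416 and 383 genes were lower and 393 and 336 higher at an unadjusted p under 0.05 with a mean beyond 0.5. Without background correction, lanosterol to cholesterol was at -0.21 and the SREBP2 difference at -0.32. With the mean of probes 34 genes were called higher, against 57. With no limit on size 1487 were lower and 814 higher, against 67 and 57. Leaving out each array in turn gave -0.43 to -0.24 for SREBP2 targets, -0.45 to -0.20 for sensing and 7 to 13 members called lower at any size, against 292 to 1936 of all genes. With the size limit 69 to 96 genes were lower and 47 to 129 higher (129 without replicate 1). LSS was at -0.50 with the mean of probes and -0.58 in the deposited table. Signal over background limited ABCA1 and ABCG1, which gave no ratio, and SC5D, which was measured. Other measured members were dim as well, among them NPC1, INSIG2, GGPS1 and STARD4.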
